A study of Mus musculus with 7 samples.

Results

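The growth plates of B6 × CAST F1 mice were used to ask how 10 genes for cell-surface, adhesion and membrane-traffic proteins were divided between the alleles of both parent strains. The 10 genes (Islr, Islr2, Sema7a, Neo1, Cd276, Nptn, Stra6, Paqr5, Scamp2 and Scamp5) were chosen by symbol from the Feml2 region, a stretch of chromosome 9 (GRCm38/mm10) of which these genes take up the part from 57441327 to 62026856. They are 10 of 64 protein-coding genes of the region and 10 of 43346 genes in the files, and all 10 passed the filter on counts. The samples were tibial growth plates of 7 male F1 mice of C57BL/6J (B6) and CAST/EiJ (CAST) at 21 days of age, which all carried 1 allele of each strain and received no treatment. The contrast is therefore between the alleles within each mouse, and no control group was involved. Counts on mitochondrial genes were 99.98% to 99.99% B6 and those on X-linked genes 90.2% to 91.6% B6. Males receive both from the mother, and strain cannot be told apart from parent of origin in these mice. As these males carry 1 X chromosome, the CAST counts on X-linked genes show that some counts went to an allele not carried. How far this holds for autosomal genes was not tested. Mice are named 1, 2, 3, 4, 5, 7 and 8, as the labels number them.

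The growth plate is the cartilage layer between the shaft and the end of a growing long bone, in which chondrocytes divide, enlarge and are replaced by bone. Proteins at the surface of its cells take part in adhesion, in the reading of guidance cues and morphogens, and in the exchange of signals with bone and marrow cells. Islr and Islr2 encode proteins with leucine-rich repeats and an immunoglobulin domain. Sema7a encodes a membrane-anchored semaphorin and Neo1 encodes neogenin, a receptor for netrins and repulsive guidance molecules. Cd276 (B7-H3) and Nptn (neuroplastin) belong to the immunoglobulin superfamily. Stra6 encodes a receptor for retinol-binding protein and Paqr5 a member of the progestin and adipoQ receptor family. Scamp2 and Scamp5 encode secretory carrier membrane proteins, which cycle between the cell surface and internal vesicles.

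Each mouse had between 14098019 and 37849667 estimated counts (median 27603769), of which 15.7% to 24.2% fell on 4 abundant noncoding RNAs. Autosomal counts were 50.27% to 50.65% CAST. Chondrocyte markers were present in all mice, with summed levels of 70679 to 111160 CPM (counts scaled to a library total of 1000000) over 12 of 12 genes. The samples also held osteoblast transcripts at 72518 to 125475 CPM over 8 of 8 genes, although the label names growth plate chondrocytes. Erythroid markers summed to 8359 to 20289 and skeletal muscle markers to 3706 to 8054 CPM. Nerve and Schwann cell markers summed to only 127 to 146 CPM, and Snap25 and Nefl were at 0 in all 7 mice. In such whole-tissue RNA, fewer cells of a type and less RNA per cell cannot be told apart.

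Levels of both alleles together are given as CPM per kilobase of exon, the scale on which genes can be compared. The 10 genes covered a wide range. Islr was highest, at 65.7 ± 3.25 (SD, n = 7 mice), with a lowest value of 61.7, a median of 66.2 and a highest of 70.1. It was followed by Sema7a at 22.8 ± 3.57, Scamp2 at 21.2 ± 1.14, Cd276 at 17.8 ± 2.2 and Neo1 at 16.9 ± 1.66 (SD, n = 7). Nptn was at 10.7 ± 1.31 and Scamp5 at 6.46 ± 0.821. The last 3 genes were near or below 1, with Islr2 at 1.08 ± 0.25, Paqr5 at 0.471 ± 0.0905 and Stra6 at 0.144 ± 0.035 (SD, n = 7).

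Within this order, 6 of the 9 neighbouring pairs differed in a two-sided exact permutation test that flips the signs of the 7 differences, with the same gene higher in 7 of 7 mice (Benjamini-Hochberg adjusted p = 0.0234 over the 9 pairs). The other 3 pairs did not pass this test. Sema7a and Scamp2 differed by a log2 value of 0.09 ± 0.25 (SD, n = 7; exact permutation test, adjusted p = 0.406), Scamp2 and Cd276 by 0.26 ± 0.249, with Scamp2 higher in 6 of 7 mice (adjusted p = 0.0603), and Cd276 and Neo1 by 0.07 ± 0.148 (adjusted p = 0.299). When the longest transcript replaced the union of exons as gene length, Scamp2 stood above Sema7a and Neo1 above Cd276, so the order among these 4 genes depends on the length used. Islr stayed highest, and Islr2, Paqr5 and Stra6 stayed lowest in that order. Without mouse 1, 7 of the 9 pairs differed. The added pair was Scamp2 and Cd276, for which mouse 1 was the 1 mouse of opposite sign. Leaving it out thus by construction gave the lowest unadjusted p that 6 mice allow.

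**Figure D1:**
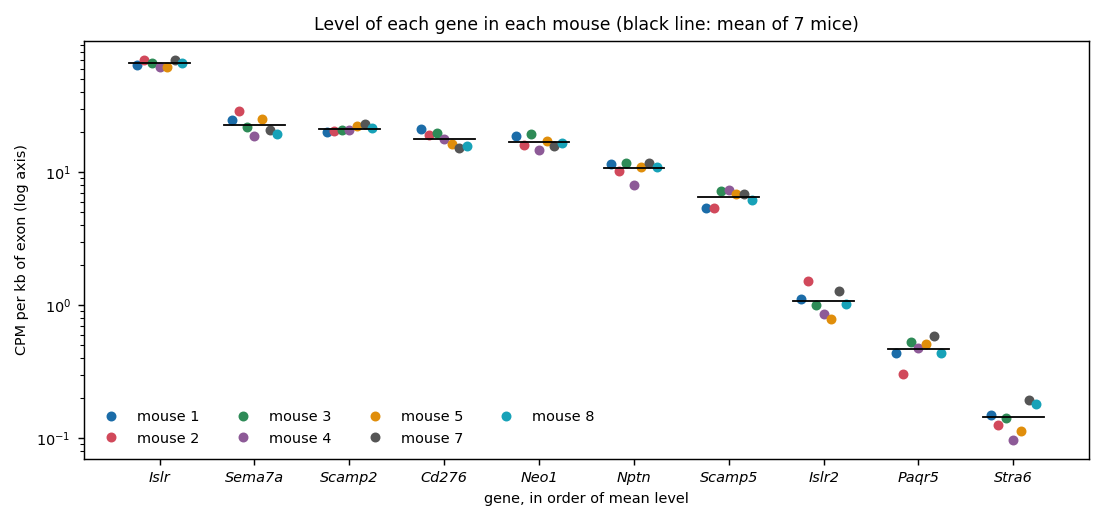
Level of each gene, both alleles together, in CPM per kilobase of exon on a log axis, with 1 point per mouse and the mean of 7 mice as a black line. Islr lies highest, between 61.7 and 70.1, and Stra6 lowest, between 0.0979 and 0.195.

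Sema7a and Cd276 levels were set beside the sums of cell type markers. Sema7a was highest in mouse 2, at 28.8, where the osteoblast sum was also highest, at 125475 CPM. It was lowest in mouse 4, at 18.8, where the chondrocyte sum was highest, at 111160 CPM. The osteoclast sum was likewise highest in mouse 2, at 3334 CPM, and lowest in mouse 4, at 2201.5 CPM. Mouse 5 had the next highest Sema7a level, 25.2, but an osteoblast sum of 79281 CPM, below the median of 85997. Its osteoclast sum, 2756.5 CPM, was the median. Mice 7 and 8 had the next highest osteoclast sums, 3083 and 3049 CPM, but Sema7a levels of only 20.9 and 19.4. The extremes were not particular to Sema7a, as Islr2 was also highest in mouse 2 and Neo1 and Nptn were lowest in mouse 4. Cd276 was highest in mice 1, 3 and 2, at 21.0, 19.7 and 18.9, and these were also the 3 mice with the highest osteoblast sums. The same 3 mice had the highest endothelial sums, at 434.5, 416.5 and 373.8 CPM. Their mesenchymal and fibroblast sums were also the highest, so the match was not particular to osteoblast markers. The part of cell composition in these levels was not tested.

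Of the 10 genes, 4 differed between alleles at an FDR under 0.20 in a likelihood-ratio test with edgeR. FDR here means a p-value adjusted by the Benjamini-Hochberg method over all 20048 tested genes, of which 34.7% were called. CAST counts were higher for Cd276, in a direction in which 16.1% of all tested genes were called. B6 counts were higher for Scamp5, Paqr5 and Islr2, in a direction in which 18.6% of all tested genes were called. These shares of all tested genes take in the X chromosome and the mitochondria, which males receive from the mother, whereas the 10 genes are autosomal. A fit of autosomal genes only called 6175 genes, beside 6961 in the main fit. Its calls were not split by direction, so 18.6% may be too high a background for autosomal genes. Of the other tested protein-coding genes of the Feml2 region, 16 of 45 were called, 12 with higher CAST counts and 4 with higher B6 counts. The share of called genes among the 10 was thus near that of all genes, and their median log2 fold change of CAST over B6 was -0.02, beside 0.01 for all genes tested. All 7 mice had the same direction for 3 of the 10 genes (Cd276, Sema7a and Scamp5), beside 24.4% of all tested genes.

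**Figure D2:**
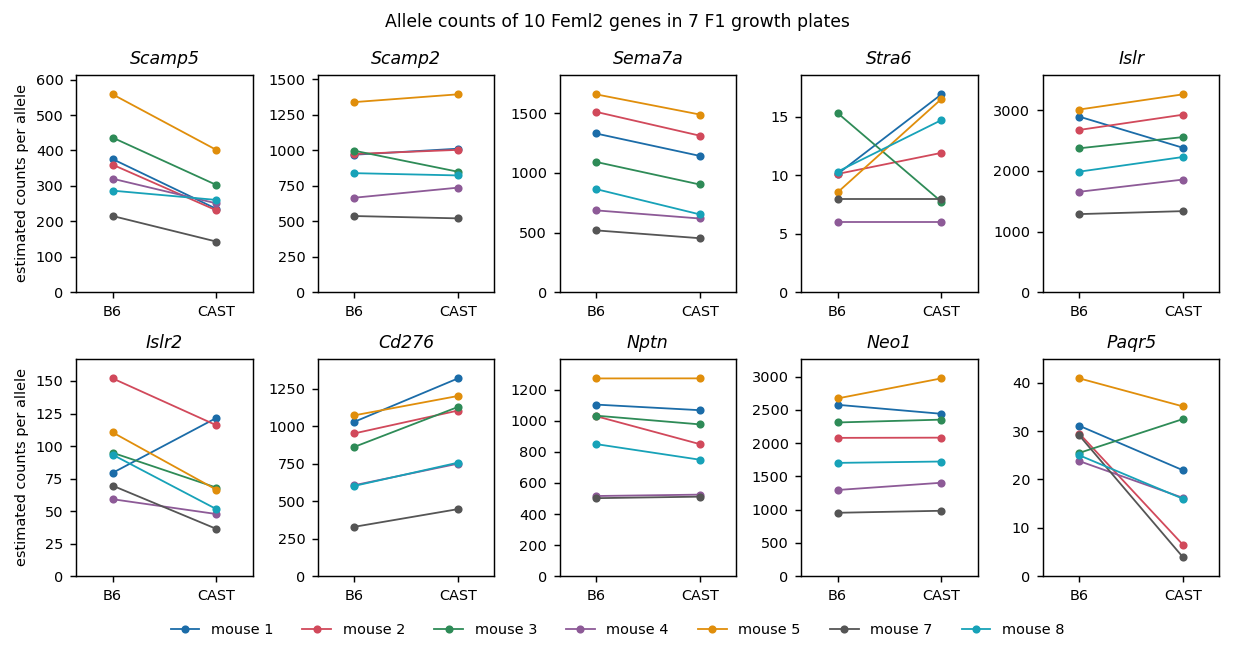
Estimated counts of the CAST and B6 alleles of each gene in each of the 7 mice, on axes that start at 0 and differ between genes, with a line joining both alleles of a mouse. Cd276 lines run toward more CAST counts and Scamp5 and Sema7a lines toward more B6 counts in 7 of 7 mice.

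Islr and Islr2, the pair with leucine-rich repeats and an immunoglobulin domain, lay on the reverse strand of chromosome 9, Islr at chr9:58156268-58204306 and Islr2 at chr9:58196297-58204319. One annotated Islr transcript starts close to the start of Islr2, so that Islr2 lies almost wholly within the span of Islr. The totals of both genes were whole numbers in 7 of 7 mice (tolerance 1e-04), so no fraction of a read shared with another gene was seen in them. Islr, known as a mesenchymal stromal cell marker also called Meflin, was divided nearly evenly on average, with 51.0% of its counts CAST. It had 2363 ± 644 CAST counts and 2268 ± 650 B6 counts (SD, n = 7), with 1336 to 3261 CAST counts (median 2379) and 1287 to 3010 B6 counts (median 2372). CAST exceeded B6 by a fitted log2 fold change of 0.09 (edgeR likelihood-ratio FDR 0.609), and an exact sign-flip permutation test gave p = 0.328. CAST was higher in 6 of 7 mice, with log2 ratios of 0.05 to 0.17, while mouse 1 stood apart at -0.28. The 95% Wilson interval of its CAST share excluded 50% in 6 of 7 mice, on the B6 side in mouse 1. Leaving out mouse 1, the 1 mouse of opposite sign, by construction gave the lowest p that 6 mice allow (exact permutation test, p = 0.0312), while edgeR's FDR was then 0.303, and without any other mouse the exact p was 0.438 to 0.531.

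The study's variant list holds 2 missense variants in Islr, both in exon 2 of 2 of Islr-201 and close enough for 1 window. They are G58157937A and T58157952C, where the B6 base is followed by its chromosome 9 position (GRCm38/mm10) and by the CAST base, all on the forward strand. The window chr9:58157907-58157967 is shown on the reverse strand, as transcribed, because these are positions at which a read can tell the alleles apart, and capitals mark the variant bases. Here and below, the CAST line is the B6 sequence with only the listed bases changed.
Islr B6: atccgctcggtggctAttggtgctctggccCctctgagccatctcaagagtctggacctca
Islr CAST: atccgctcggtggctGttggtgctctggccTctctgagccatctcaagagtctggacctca

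Islr2, a gene with a known part in the growth of sensory axons, had far fewer counts, 106 to 268 per mouse. CAST counts were 72.6 ± 33.4 and B6 counts 94.1 ± 30.7 (SD, n = 7). CAST counts ran from 36.4 to 121.6 (median 66.5) and B6 counts from 59.2 to 152.0 (median 93.4). B6 was higher in 6 of 7 mice, with log2 ratios of CAST to B6 of -0.92 to -0.30, and mouse 1 was again apart and in the opposite direction, at 0.61. In the fit the log2 fold change was -0.40 (edgeR likelihood-ratio FDR 0.172) and the exact sign-flip permutation test gave p = 0.0781. This call was not stable to the mice included. Islr2 remained called without mouse 1 (edgeR FDR 0.0359) or mouse 2 (FDR 0.170) and was not called without mouse 3 (FDR 0.264), 4 (0.209), 5 (0.260), 7 (0.404) or 8 (0.377). It was also not called with no filter on counts (FDR 0.205). The exact permutation test gave p = 0.0312 without mouse 1, again the value fixed by leaving out the 1 mouse of opposite sign, and 0.125 to 0.156 without any of the others.

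Compared within mice, the log2 ratio of Islr exceeded that of Islr2 by 0.50 ± 0.653 (SD, n = 7 mice), which did not pass an exact sign-flip permutation test (p = 0.0938, also 0.0938 after adjustment over 2 pairs of related genes). The difference was 0.47 to 1.01 in 6 mice and -0.89 in mouse 1. Without mouse 1, the 1 mouse of opposite sign, it was 0.73 (exact permutation test, adjusted p = 0.0312), and without any other mouse it was 0.42 to 0.51 (adjusted p = 0.156 to 0.188).

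Of 14 tested genes for other proteins with leucine-rich repeats and immunoglobulin domains (the LINGO, LRIG, LRRN, LRRC4 and AMIGO families), 5 (35.7%) were called. This was near the 34.7% of all tested genes. CAST counts were higher for 1 and B6 counts for 4. The lowest P-values were those of Amigo2 (log2 fold change 0.56, edgeR FDR 0.0106) and Amigo1 (-0.74, FDR 1.53e-06). Lrig3, the gene of this list with the highest counts, had 485 ± 135 CAST and 490 ± 114 B6 counts (SD, n = 7; log2 fold change -0.02, edgeR FDR 0.974).

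**Figure D3:**
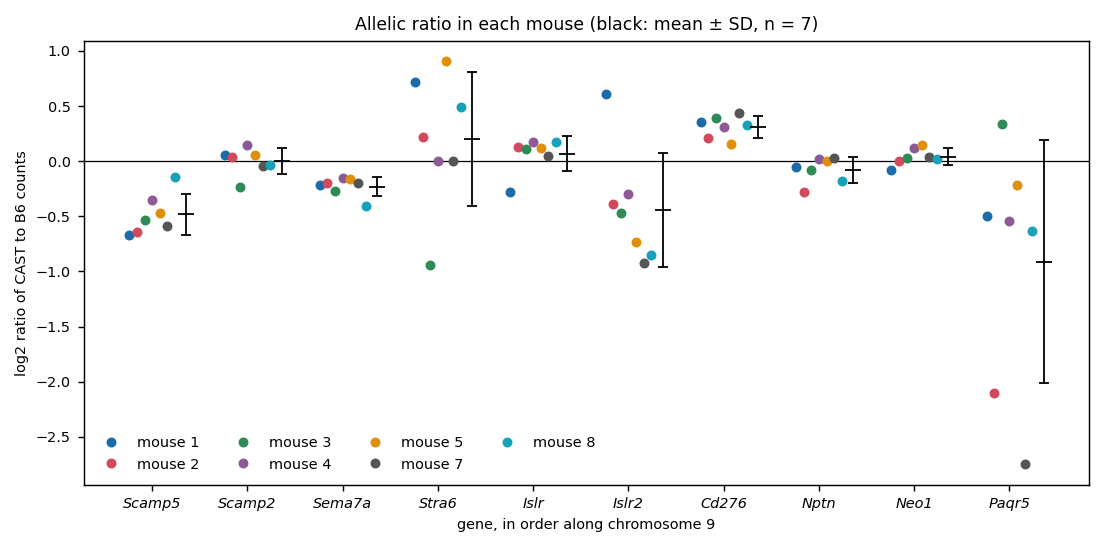
Log2 ratio of CAST to B6 counts (pseudocount 0.5) of each gene, with 1 point per mouse and the mean ± SD of 7 mice in black. The 0 line marks equal counts, Islr and Islr2 show mouse 1 on the other side of it from the 6 other mice, and Paqr5 shows the widest spread.

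Sema7a, a semaphorin that signals through integrins and plexin C1, lies at chr9:57940112-57962865 on the forward strand. It had 939 ± 389 CAST counts and 1095 ± 428 B6 counts (SD, n = 7). CAST counts ran from 452.6 to 1489 (median 903) and B6 counts from 518 to 1659 (median 1092). B6 was higher in 7 of 7 mice, and the log2 ratios of CAST to B6 of -0.41 to -0.15 (mean -0.23 ± 0.0883, SD, n = 7) were narrowly spread. An exact sign-flip permutation test gave p = 0.0156, the lowest value that 7 pairs can give. In the fit without the mouse as a block, the log2 fold change was -0.21 and edgeR's FDR 0.203, just above the threshold of 0.20, and it was 0.11 without mouse 2 and 0.236 to 0.37 without any other mouse. When the mouse was a replicate block, so that both alleles of a library were compared directly, the FDR was 2.85e-09, and it was 0.00266 with edgeR's quasi-likelihood test and the same block. With the block, 45.6% of all tested genes were called, and 6 of the 10 genes.

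The variant list holds 2 missense variants of Sema7a, G57940299T in exon 1 of 14 and G57954532A in exon 4 of 14 of Sema7a-201, with the B6 base first and the CAST base last. The spliced sequence around each is shown on the forward strand, as transcribed, since the alleles of this gene differed in counts in all 7 mice, and capitals mark the variant base. The first window, chr9:57940269-57953536, and the second, chr9:57954189-57954562, each run over an exon junction.
Sema7a first site, B6: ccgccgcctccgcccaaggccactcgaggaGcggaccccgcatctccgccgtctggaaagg
Sema7a first site, CAST: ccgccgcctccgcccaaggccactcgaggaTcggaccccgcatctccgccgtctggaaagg
Sema7a second site, B6: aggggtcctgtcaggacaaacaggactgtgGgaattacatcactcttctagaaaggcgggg
Sema7a second site, CAST: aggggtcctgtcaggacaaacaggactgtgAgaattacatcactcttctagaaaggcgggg

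None of 7 tested genes for partners of Sema7a (among them integrins, Plxnc1 and Ptk2) was called with edgeR's likelihood-ratio test, beside 34.7% of all tested genes. In that test 0 had an unadjusted P under 0.05, and DESeq2 also called 0. Once the mouse was a block 1 was called, beside 45.6% of all tested genes. Itgav, an integrin alpha subunit and the gene of this list with the highest counts, had 2277 ± 933 CAST and 2228 ± 938 B6 counts (SD, n = 7), and its log2 fold change was 0.06 (edgeR FDR 0.883).

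Neo1, at chr9:58874687-59036441 on the reverse strand, was among the most evenly divided of the 10 genes. It had 1994 ± 675 CAST counts and 1941 ± 651 B6 counts (SD, n = 7), with CAST counts of 984 to 2972 (median 2082) and B6 counts of 953 to 2671 (median 2078). The log2 ratios were -0.08 to 0.15, and mouse 1 was the 1 mouse with fewer CAST than B6 counts. Its fitted log2 fold change was 0.05 (edgeR likelihood-ratio FDR 0.755), and the exact sign-flip permutation test gave p = 0.234. Leaving out mouse 1 fixed that p at the 6-mouse minimum of 0.0312, while edgeR's FDR was then 0.666, and without any other mouse the exact p was 0.25 to 0.469. Comparing alleles within mice (replicate block) gave an FDR of 0.188, which passes the threshold, and of 0.206 with edgeR's quasi-likelihood test and the same block. The listed missense variants of Neo1 are T58957975A in exon 6 and A58978730C in exon 5 of 29.

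Of 16 tested genes for ligands and partners of neogenin, 1 was called, and 5 once the mouse was a block. Of all tested genes, 34.7% were called, and 45.6% with the block. The called gene was Unc5a, a netrin receptor, with 11 ± 9.65 CAST and 39.0 ± 6.98 B6 counts (SD, n = 7; log2 fold change -1.92, edgeR FDR 9.12e-10). Unc5b, a related netrin receptor and the gene of this list with the highest counts, had 3474 ± 1303 CAST and 3391 ± 1252 B6 counts (SD, n = 7; log2 fold change 0.05, edgeR FDR 0.924). CAST was higher for Unc5b in 6 of 7 mice, and it was among the 5 genes called with the replicate block (FDR 0.181). For Bmp6 the files gave equal counts for both alleles in all 7 mice (tolerance 1e-04 on the log2 ratio), so that no allelic difference could be measured.

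Cd276, an immune regulatory protein of the B7 family that is also expressed by cells of bone, lies at chr9:58524298-58555437 on the reverse strand. It was the 1 gene of the 10 called with higher CAST counts. It had 960 ± 312 CAST counts and 780 ± 274 B6 counts (SD, n = 7), with CAST counts of 448 to 1321 (median 1106) and B6 counts of 329.9 to 1074 (median 863). Within each of the 7 mice CAST was higher, with log2 ratios of 0.16 to 0.44 (mean 0.31 ± 0.0971, SD, n = 7). The CAST share of its counts was 52.8% to 57.6% in single mice, and the 95% Wilson interval excluded 50% in 7 of 7 mice. Such intervals cover no more than counting error. They take each estimated count as a read of known allele, although reads that matched both alleles were split, so they may be too narrow. A log2 fold change of 0.33 was fitted (edgeR likelihood-ratio FDR 0.0115) and the exact sign-flip permutation test gave p = 0.0156. Cd276 was called in 17 of 17 other settings of the fit, with FDR values of 0.0124 to 0.0376 when a mouse was left out. It overlaps Gm10657 on the opposite strand.

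The list holds 1 missense variant of Cd276, C58530599A in exon 5 of 8 of Cd276-202, given on the forward strand with the B6 base first. The spliced sequence around it, shown on the reverse strand as transcribed because Cd276 was the gene called in the CAST direction, spans chr9:58528467-58530629 with an exon junction, and the capital marks the variant base.
Cd276 B6: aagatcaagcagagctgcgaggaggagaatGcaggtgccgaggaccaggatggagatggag
Cd276 CAST: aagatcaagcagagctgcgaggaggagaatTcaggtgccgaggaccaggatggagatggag

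Of 9 tested genes of the B7 family and its receptors, 7 were called, beside 34.7% of all tested genes. The list was not tested as a set. With the mouse as a block 6 were called, beside 45.6% of all tested genes. DESeq2 also called 6, and 1 of the 7 had a mean total of only 3.43 counts. CAST counts were higher for 3 of the 7 and B6 counts for 4, so the direction of Cd276 was not shared by all. Ildr2 had means of 97.5 CAST and 49.4 B6 counts, with CAST higher in 7 of 7 mice (log2 fold change 0.99, edgeR FDR 8.41e-07). Vsir (VISTA), the gene of this list with the highest counts, had 1486 ± 541 CAST and 1903 ± 666 B6 counts (SD, n = 7; log2 fold change -0.34, edgeR FDR 0.0140), with B6 higher in 7 of 7 mice. Cd80 had equal counts for both alleles in all 7 mice and could not be compared.

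Nptn, whose protein is a subunit of plasma membrane calcium pumps and a ligand of fibroblast growth factor receptor 1, lies at chr9:58582240-58657955 on the forward strand. It had 850 ± 281 CAST and 901 ± 295 B6 counts (SD, n = 7), with CAST counts of 512 to 1272 (median 849.7) and B6 counts of 502 to 1272 (median 1030). The log2 ratios lay between -0.28 and 0.03, and 4 of 7 mice had more B6 counts. The log2 fold change was -0.06 (edgeR likelihood-ratio FDR 0.712), and the exact sign-flip permutation test gave p = 0.156. Nptn was the 1 gene of the 10 whose total was not a whole number (tolerance 1e-04), in 7 of 7 mice, which marks reads shared with other genes. It overlaps Rec114 on the opposite strand. Its level was lowest in mouse 4, at 8.03 CPM per kilobase, beside 10.2 to 11.8 in the 6 other mice.

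Of 10 tested genes for relatives and partners of neuroplastin, 4 were called, 2 in each direction, beside 34.7% of all tested genes. Fgfr1, with the highest counts of this list, had 3922 ± 1203 CAST and 3285 ± 1092 B6 counts (SD, n = 7; log2 fold change 0.28, edgeR FDR 0.0186), with CAST higher in 7 of 7 mice. Slc16a7, a monocarboxylate transporter, had a log2 fold change of 0.60 (edgeR FDR 0.00343). Atp2b3, a calcium pump gene on the X chromosome, of which these males carry 1 copy, had 0.634 ± 0.859 CAST and 23.5 ± 13.9 B6 counts (SD, n = 7).

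Stra6, at chr9:58063788-58153996 on the forward strand, had too few counts for a firm statement, 12 to 27 per mouse. It had 11.7 ± 4.49 CAST and 9.76 ± 2.88 B6 counts (SD, n = 7), with CAST counts of 6.00 to 16.9 (median 11.9) and B6 counts of 6.00 to 15.3 (median 10.1). Mice 4 and 7 had nearly equal counts of both alleles, at 6.0 and at 8.0 each. The log2 fold change was 0.26 (edgeR likelihood-ratio FDR 0.612), the log2 ratios lay between -0.94 and 0.91, and the exact sign-flip permutation test gave p = 0.5. An allelic difference was not detectable at this depth, with 95% Wilson intervals that held 50% in all 7 mice. Its listed missense variant is C58143018G in exon 8 of 19, and the gene overlaps Ccdc33.

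Of 19 tested genes for retinoid handling, 5 (26.3%) were called, beside 34.7% of all tested genes. CAST counts were higher for 3 of the 5 and B6 counts for 2. Rdh10, which oxidizes retinol, had 130.5 ± 35.6 CAST and 96.0 ± 28.8 B6 counts (SD, n = 7; log2 fold change 0.47, edgeR FDR 0.00357). Aldh1a1, which forms retinoic acid, went the other way, at 61.1 ± 31.4 CAST and 89.7 ± 43.9 B6 counts (log2 fold change -0.58, edgeR FDR 0.00966). Rxra, a nuclear receptor and the gene of this list with the highest counts, had 1433 ± 461 CAST and 1455 ± 486 B6 counts (SD, n = 7; edgeR FDR 1.00).

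Paqr5, a membrane progestin receptor gene at chr9:61953481-62026856 on the reverse strand and the farthest of the 10 from the others, had the largest fold difference of the 10 and the widest spread. Its counts were 33 to 76 per mouse. CAST counts were 18.9 ± 11.9 and B6 counts 29.3 ± 5.80 (SD, n = 7). CAST counts ran from 3.91 to 35.1 (median 16.2), whereas B6 counts ran from 23.8 to 40.9 (median 29.1). Mice 7 and 2 had the lowest CAST counts, 3.91 beside 29.1 B6 counts and 6.48 beside 29.5. Mouse 3 had more CAST than B6 counts, 32.5 beside 25.5. The log2 fold change was -0.74 (edgeR likelihood-ratio FDR 0.0480), B6 was higher in 6 of 7 mice, and the exact sign-flip permutation test gave p = 0.0469. Without mouse 7 the log2 fold change was -0.48 and Paqr5 was no longer called (edgeR FDR 0.245). The exact permutation test gave p = 0.0625 to 0.0938 when a mouse other than mouse 3 was left out. Without mouse 3 it gave 0.0312, again the value fixed by leaving out the 1 mouse of opposite sign. In 2 of 7 mice the 95% Wilson interval of its CAST share excluded 50%.

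Of 12 tested genes of the progestin and adipoQ receptor family and its partners, 5 (41.7%) were called, beside 34.7% of all tested genes. CAST counts were higher for 4 of the 5 and B6 counts for 1. Once the mouse was a block 8 were called, beside 45.6% of all tested genes. Paqr6, another progestin receptor gene, had 72.3 ± 23.4 CAST and 15.6 ± 5.54 B6 counts (SD, n = 7; log2 fold change 2.23, edgeR FDR 8.70e-27), the opposite direction from Paqr5, with CAST higher in 7 of 7 mice. Adipor1, an adiponectin receptor gene with the highest counts of this list, had 2303 ± 657 CAST and 1986 ± 658 B6 counts (SD, n = 7; log2 fold change 0.25, edgeR FDR 0.0116). Pgrmc1, the gene called with higher B6 counts (log2 fold change -2.22), lies on the X chromosome. Paqr4 had equal counts for both alleles in all 7 mice.

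Scamp5 and Scamp2 are the first of the 10 along the chromosome, at chr9:57441327-57468060 on the reverse and chr9:57560943-57588795 on the forward strand, with 92.9 kb between them. Scamp5, known for its part in synaptic vesicle recycling, had 261 ± 78.7 CAST and 365 ± 110.5 B6 counts (SD, n = 7), with CAST counts of 143 to 402 (median 251) and B6 counts of 215 to 558 (median 359.9). B6 was higher in 7 of 7 mice, with log2 ratios of CAST to B6 of -0.67 to -0.14. The log2 fold change was -0.46 (edgeR likelihood-ratio FDR 0.00348), the lowest FDR of the 10 genes, and the exact sign-flip permutation test gave p = 0.0156. Scamp5 was called in 17 of 17 other settings of the fit. The CAST share was 38.5% to 43.9% in 6 mice and 47.6% in mouse 8, where the 95% Wilson interval of 43.4% to 51.7% held 50%.

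Scamp2, the broadly expressed relative, was evenly divided. It had 904 ± 272.5 CAST and 902 ± 259 B6 counts (SD, n = 7), with CAST counts of 519.8 to 1393 (median 848) and B6 counts of 536 to 1338 (median 968). Its log2 fold change was 0.02 (edgeR likelihood-ratio FDR 0.976), and the direction was split, with CAST ahead in 4 of 7 mice. The log2 ratio of Scamp2 exceeded that of Scamp5 in 7 of 7 mice, by 0.49 ± 0.217 (SD, n = 7; exact sign-flip permutation test, p = 0.0156, or 0.0312 adjusted over 2 pairs). The lowest difference was 0.11, in mouse 8, and the highest 0.74, in mouse 1. With 1 mouse left out, the adjusted p of this exact permutation test was 0.0625 for each mouse other than mouse 1, since 6 mice allow no lower value before adjustment than 0.0312.

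Of 8 tested genes for other secretory carrier membrane proteins and their partners, 2 were called, 1 in each direction, and 4 once the mouse was a block. Of all tested genes, 34.7% were called, and 45.6% with the block. Vamp3, a vesicle fusion protein gene, had 598 ± 200.5 CAST and 448 ± 184 B6 counts (SD, n = 7; log2 fold change 0.46, edgeR FDR 0.00138), with CAST higher in 7 of 7 mice. Slc9a7, a sodium-proton exchanger gene on the X chromosome, had 9.41 ± 4.17 CAST and 122 ± 70.5 B6 counts. Ehd1, an endocytic recycling gene with the highest counts of this list, had a log2 fold change of 0.11 (edgeR FDR 0.463). CAST was higher for Ehd1 in 6 of 7 mice, and it was among the 4 genes called with the replicate block (FDR 0.0345).

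Over all 8 lists, 103 of 105 genes were matched in the files, 95 were tested and 29, or 30.5%, were called, beside 34.7% of all tested genes. CAST was higher for 14 of them and B6 for 15, of which 3 were X-linked. Some of the genes named from the lists had totals that were not whole, so reads shared with other genes enter their counts. This held in 7 mice for Itgav, Ildr2, Fgfr1, Vamp3 and Paqr4, and in 6 for Paqr6. It held in 4 mice for Unc5b, in 3 for Aldh1a1 and in 1 for Slc9a7.

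**Figure D4:**
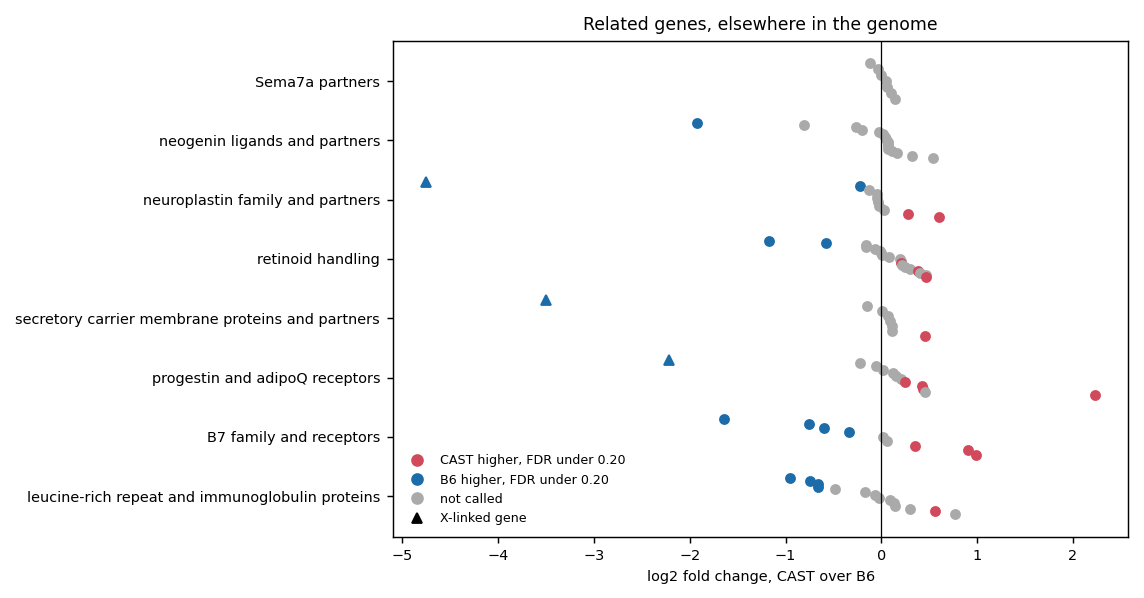
Log2 fold change of CAST over B6 of each tested gene of the 8 lists of related genes, with called genes (edgeR FDR under 0.20) in the colour of the allele with more counts and triangles for X-linked genes. Called genes lie on both sides of 0, and the Sema7a list has none.

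**Figure D5:**
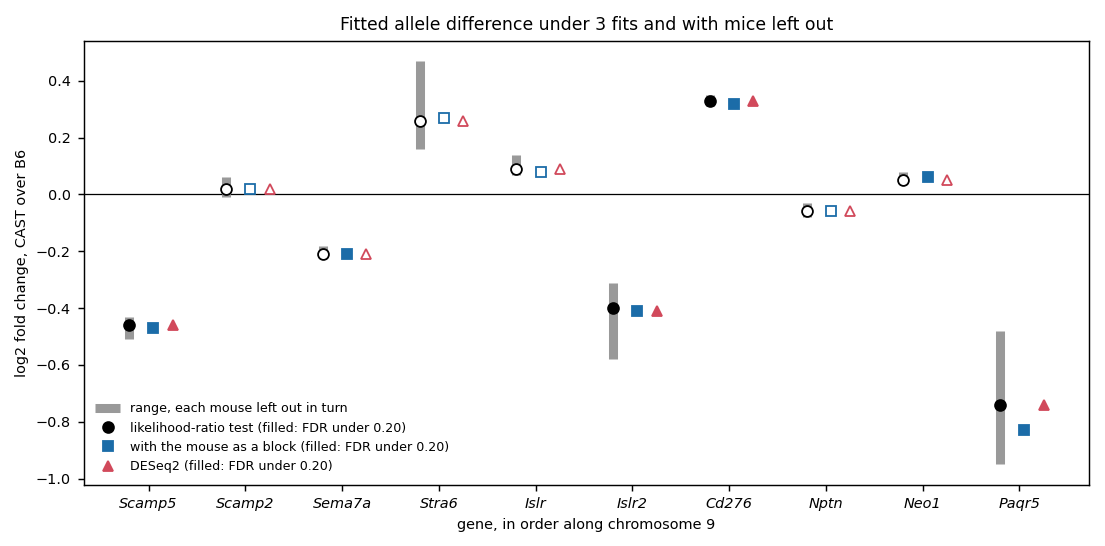
Log2 fold change of CAST over B6 of each of the 10 genes in edgeR's likelihood-ratio test, in the same test with the mouse as a block and in DESeq2, with filled symbols for an FDR under 0.20 and grey bars for the range with each mouse left out in turn. Cd276, Scamp5, Paqr5 and Islr2 are filled in all 3 fits, and the bars are longest for Paqr5, from -0.95 to -0.48, and Stra6, from 0.16 to 0.47.

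Over the 17 other settings of the fit, Cd276 and Scamp5 were called in 17, Paqr5 in 16, Islr2 in 11 and Sema7a in 8. Nptn and Neo1 were called in 1 each. Islr, Stra6 and Scamp2 were called in 0, and their unadjusted P-values in edgeR's likelihood-ratio test were 0.351, 0.354 and 0.831.

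For the 4 called genes, the genes most like them in allelic balance were found by the Euclidean distance between the 7 log2 ratios, among 11353 tested autosomal genes with a mean total of at least 100 counts. The nearest to Cd276 were Rpl13a (distance 0.163) and Grn (0.176), and those nearest to Scamp5 were Ppil1 (0.278) and Txnl4b (0.308). Islr2 had more distant neighbours, Commd10 (0.707) and Arfrp1 (0.713). Paqr5 had none close to it, as the nearest genes were Pde6d (1.60) and Ccdc92b (1.72). The distance describes the 7 libraries, and was not tested.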

How the data were processed

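Total RNA of tibial growth plates from 7 F1 mice was depleted of ribosomal RNA and sequenced. The authors used Bowtie, with at most 3 mismatches, to place reads on the transcripts of both strains (mm10) and deposited estimated counts per gene and allele from EMASE. No normalization was applied to these expected counts, and a read that matched both alleles, or more than 1 gene, was split, which leaves fractions. Counting error is widest in genes with few counts.

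Genes with a count above 0 (values rounded to 6 decimals) for at least 1 allele in each of the 7 mice were kept, 20048 of 43346. Counts were rounded and alleles compared with edgeR 4.0.16 (R 4.3.3, limma 3.58.1; TMM, glmFit, glmLRT), after the study's methods, with P-values adjusted by Benjamini-Hochberg over all tested genes and a threshold of 0.20. Pairing rests on the fact that each library holds both alleles, whose deviations correlated at -0.0281 to 0.257 (mean 0.112) within mice over 14526 genes, beside a mean of -0.019 between mice. Alternatives were the mouse as a block, DESeq2 1.42.0, edgeR's quasi-likelihood test, other filters and library sizes, and each mouse left out. For single genes, log2 ratios (pseudocount 0.5) were tested by an exact permutation test (two-sided, sign-flip), with 128 sign patterns and a lowest p of 0.0156. P-values of the permutation tests rest on the spread of within-mouse differences between these mice. The main edgeR fit took the 14 allele columns as unpaired. GENCODE M21 gave coordinates for 42462 identifiers, and sequences were read from its transcripts, with substitutions from the study's variant list. That list holds potentially high-impact variants only, so other CAST differences, such as synonymous ones, are not shown.

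The members and lists were chosen with earlier results of these data known. Of the lists, 1 gene is not reported here and was left out of their counts. Named are the 10 genes, the called gene with the lowest P-value in each direction and the gene with the most counts of each list, and the 2 genes most like each called gene. The block with 1 library size per mouse, and the lists under further settings, were added after seeing the data.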

Additional observations from a re-analysis of the deposited data

Results flagged for a closer look

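In 20 sets of 7 values (the log2 ratio and the log2 level of each of the 10 genes), the highest or lowest mouse was set against the rest with Dixon's ratio and its 95% critical value for 7 values. The value of 1 mouse lay past this limit in 3 of the 20 sets, where chance gives about 1.0.

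The log2 ratio of CAST to B6 counts of Islr was -0.28 in mouse 1, far from the 0.05 to 0.17 of the other mice. For Islr2, the neighbour within the span of Islr, the log2 ratio was 0.61 in the same mouse, far from the -0.92 to -0.30 of the others. Both genes thus departed from their other mice in mouse 1 and in opposite directions. The log2 level of Nptn was 3.00 in mouse 4, below the 3.36 to 3.56 of the other mice. The cause of these values was not tested.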

How the results depend on the processing

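The fit was repeated in 18 other settings, 7 of which left out 1 mouse each. The number of called genes among the 10 was 3 to 6 with all mice and 2 to 5 with 1 mouse left out, the lowest, 2, without mouse 7. In the fit with the mouse as a replicate block it was 6, and the block changed no call among the 10 other than those of Sema7a and Neo1. The difference of Scamp2 and Scamp5 was 0.44 to 0.55 with 1 mouse left out and kept its direction, although 6 mice allow no p under 0.0312 before adjustment. That of Islr and Islr2 was 0.42 to 0.73. With 1 mouse left out, the fitted log2 fold change of Scamp2 ran from -0.01 (without mouse 4) to 0.06, and its mean log2 ratio from -0.02 (without mouse 4; -0.01 without mouse 1, 2 or 5) to 0.04. With a threshold of 0.05 on edgeR's FDR, 3 of the 10 and 4762 genes in all were called. The count of reads that tell the alleles apart is unknown, which limits Stra6, Paqr5 and Islr2 most. The values for single genes under other settings pool the fits and the exact permutation tests, each with its own threshold. Of them, 239 kept their direction and side of the threshold, 13 passed it anew, 13 no longer passed it and 5, all of Scamp2, changed sign. Those that passed anew include the permutation tests of Islr, Islr2 and Neo1 without mouse 1, whose p was fixed by leaving it out. Those that no longer passed include permutation tests of Paqr5 with 6 mice.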
